A study of Mus musculus with 11 samples.

Results

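Antibody variable (V) gene segments were followed in the colon RNA of a mouse model in which T cells lack the mitochondrial transcription factor Tfam. The segments were all genes of the deposited table whose identifier carries a mouse symbol that starts with Ighv (heavy chain), Igkv (kappa light chain) or Iglv (lambda light chain). They were 195 of 22836 genes, namely 96 Ighv, 96 Igkv and 3 Iglv segments, out of 346 such segments in the annotation, and the other 151 were not analysed here. Of the 195, 193 are annotated as functional genes and 2 as pseudogenes.

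The RNA came from frozen pieces of whole colon of adult mice about 10 months old. KO mice (Tfam fl/fl Cd4 Cre, n = 3 libraries) delete Tfam in CD4 and CD8 T cells through a Cre driven by Cd4. Transferred mice (Tfam fl/fl Cd4 Cre given CD4 T cell therapy, n = 5) had received CD4 T cells of young CD45.1 donors and kept their own Tfam-deleted T cells. Control mice (Tfam fl/fl, n = 3) carried the same floxed alleles without Cre. The Cre does not target B cells, so the V segments were measured in cells that keep Tfam in every group. Tfam itself had 1054, 1102 and 1040.3 normalized counts in KO, 865, 1090.5, 1045, 1017 and 1086 in transferred, and 1083, 977 and 1018 in control libraries. The groups overlapped, and these are levels of the whole tissue and not of its T cells, so they do not check the deletion.

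Each B cell joins 1 V segment of its heavy chain locus and 1 of a light chain locus to shorter D and J segments, and the joined exon encodes the part of the antibody that binds antigen. A plasma cell, the antibody-secreting end stage of a B cell, transcribes its joined genes at a very high rate, so V reads of gut tissue come mostly from plasma cells, which in the colon mainly make IgA. Germinal centres, where T follicular helper cells select B cells, add point mutations to the joined V exon, and cells of 1 clone share the same joined segments.

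The members lie in 3 clusters: Ighv segments in chr12:113542124-115964081, Igkv segments in chr6:67532481-70681161 and Iglv segments in chr16:18903767-19079609 (GRCm39). A V exon is followed in the genome by a recombination signal, a heptamer and a nonamer held apart by a spacer, where the cut for the joining reaction is made. The signals of 5 segments that the results turn on are shown 5′ to 3′ on the strand of the gene, each right after the end of the annotated exon, with heptamer and nonamer in capitals.
Ighv1-53 (chr12:115121985-115122022, minus strand): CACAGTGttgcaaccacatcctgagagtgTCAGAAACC
Igkv9-124 (chr6:67919030-67919057, minus strand): CACAGTGatacaaattataACATAAACC
Igkv1-110 (chr6:68248252-68248279, plus strand): CACAGTGatacagaccctaACAAAAATA
Iglv1 (chr16:18903728-18903766, minus strand): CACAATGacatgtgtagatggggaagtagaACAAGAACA
Iglv2 (chr16:19079112-19079150, minus strand): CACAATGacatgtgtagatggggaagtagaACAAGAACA
For the spacer, the standard 12 bases (kappa) or 23 bases (heavy and lambda), or a base either side, were tried. The length whose nonamer best matched ACAAAAACC was kept. It was 12 bases in these kappa segments, 23 in the lambda segments and 22 in Ighv1-53. It was 12 bases in 95 of 96 Igkv segments, and 23 bases in 42 of 96 Ighv and 3 of 3 Iglv segments. Lengths of 22 and 23 in heavy segments may differ by this choice of frame alone. A heptamer with at most 1 mismatch followed the exon in 90 of 96 Ighv segments. Iglv1 and Iglv2 have identical signals. The heptamer CACAGTG followed the exon without a mismatch in 158 of 195 members (81.0%), and it followed the annotated gene end in 0.062% of the other genes of the table.

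The promoters of V genes are known for an octamer to which the factors Oct1, found in most cells, and Oct2, found mainly in B cells, bind. The octamer ATGCAAAT, or ATTTGCAT as it reads on the other strand, was searched in the window from 250 bases before to 50 bases after each annotated gene start. It was present in 150 of 195 members (76.9%) and in 1.63% of the other 22461 genes of the table. In 30-base stretches on the strand of the gene, with the octamer in capitals, it reads as follows.
Ighv1-53 (chr12:115122545-115122574, minus strand): tgctcataaatATGCAAATcctgtgaatct
Ighv5-12 (chr12:113666316-113666345, minus strand): agcaggaagacATGCAAATaagccttctct
Igkv9-124 (chr6:67919597-67919626, minus strand): gcttcttaatgATTTGCATaccctcactgc
Iglv1 (chr16:18904297-18904326, minus strand): aaatgaaagtaATTTGCATtactagcccag
The stretches show the opposite orientation of the octamer in the heavy and light chain genes: 78 of 78 Ighv segments with an octamer carried ATGCAAAT nearest to the start, whereas all 69 Igkv and all 3 Iglv segments with one carried ATTTGCAT. The median distance from the octamer to the gene start was 99.0 bases in Ighv and 84.0 bases in Igkv. The median of the mean level was 55.4 normalized counts in members with an octamer and 51.5 in those without.

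Values are normalized counts, that is reads per gene divided by 1 factor per library, where 1 read is worth 0.913 to 1.10 normalized counts. The libraries held 18214741 to 19178986 reads in genes. Beside the V segments, the colon libraries differed in their makeup: the summed level of 8 smooth muscle genes was 29169 to 42842 in KO, 87577 to 142795 in transferred and 206719 to 255482 in control libraries, and that of 9 neutrophil genes was 1883 to 5740 in KO, 71.4 to 373 in transferred and 67.8 to 114 in control libraries. Summed T cell markers were 1813 to 1952 in KO, 630 to 1920 in transferred and 302 to 420 in control libraries. The part of these shifts in the results on V segments was not tested. In whole tissue, fewer cells of a type and less RNA per cell cannot be told apart. The labels name no animal, and the study's methods describe its data points as separate biological samples, so the p-values measure the spread among these libraries.

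The V signal of the KO colon was 5.23-fold that of control colon. Summed over the 195 members, it was 35685, 32460 and 27853 normalized counts in KO, 24259, 9624, 21041, 29339 and 10366 in transferred, and 6451, 3805 and 8114 in control libraries. Means ± SD were 31999 ± 3936 (n = 3) in KO, 18926 ± 8677 (n = 5) in transferred and 6124 ± 2173 (n = 3) in control colon. Every KO and every transferred library was above every control library, whereas transferred 4 lay above the lowest KO library. Transferred 2 and transferred 5 were close to the highest control library. The V reads made up 0.138% to 0.193% of all reads in KO, 0.0515% to 0.164% in transferred and 0.0202% to 0.0404% in control libraries.

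**Figure D1:**
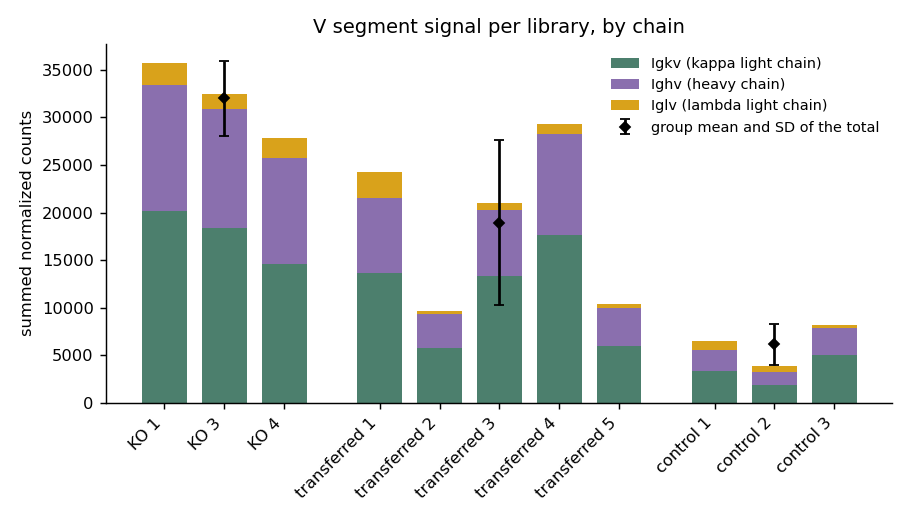
Summed normalized counts of V segments (y axis) in each library (x axis), stacked by chain, with the mean and SD of the total per group as a diamond and bar. The 3 KO libraries reach 27853 to 35685, the 5 transferred libraries spread from 9624 to 29339, and the 3 control libraries stay at 3805 to 8114.

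The sums of heavy, kappa and lambda segments were each higher in KO than in control colon, with the smallest ratio for lambda. Ighv segments summed to 13257, 12487 and 11160 in KO, 7882, 3603, 6941, 10642 and 4061 in transferred, and 2161, 1360 and 2900 in control libraries. The ratio of group means was 5.75 for KO over control and 0.539 for transferred over KO, and every transferred library was below every KO library. Igkv segments summed to 20117, 18404 and 14623 in KO, 13676, 5693, 13341, 17585 and 5940 in transferred, and 3338, 1869 and 4969 in control libraries. Their ratio of group means was 5.22 for KO over control and 0.635 for transferred over KO, and here transferred 4 exceeded KO 4. Iglv segments summed to 2311, 1568 and 2071 in KO, 2701, 328, 760, 1111 and 365 in transferred, and 952, 577 and 246 in control libraries. Transferred 1 was thus the highest lambda library of the series, and the ratio of group means of lambda was 3.35 for KO over control and 0.531 for transferred over KO, where the libraries overlapped.

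Lambda segments took an uneven part of the light chains. Their share of all light chain V counts was 10.3%, 7.85% and 12.4% in KO, 16.5%, 5.45%, 5.39%, 5.94% and 5.78% in transferred, and 22.2%, 23.6% and 4.71% in control libraries. Control 1 and control 2 were the highest and control 3 the lowest, so the control libraries spanned the range of all others.

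V exons are spliced to the exons of a constant region, so their counts can be set beside each other. The KO over control ratio of group means was 5.75 for Ighv segments and 4.12 for heavy constant regions. For each 100 counts of heavy constant regions there were 11.7, 12.2 and 10.3 Ighv counts in KO, 9.81, 10.2, 8.13, 13.0 and 9.30 in transferred, and 6.70, 8.66 and 9.48 in control libraries. KO and control libraries did not overlap in this ratio. Lambda was read in the same way. The KO over control ratio of group means was 3.35 for Iglv segments and 2.02 for lambda constant regions, whose libraries overlapped. For each 100 counts of lambda constant regions, Iglv counts were 79.7 to 125 in KO, 47.8 to 74.7 in transferred and 51.9 to 59.4 in control libraries. Every KO library was thus above every other library in the lambda ratio. The lambda constant genes differed among themselves. Iglc1 had 1008, 824 and 1682 normalized counts in KO and 141, 399 and 168 in control libraries. Iglc3 had 443, 118 and 403 in KO and 1150, 454 and 43.0 in control libraries. The part of Iglc3 in the lambda ratio was not tested. For each 100 counts of Igkc, the kappa constant region, there were 38.9, 44.1 and 31.2 Igkv counts in KO, 40.1, 32.9, 31.5, 46 and 27.9 in transferred, and 27.3, 31.1 and 35.7 in control libraries, and all groups overlapped. Per count of Jchain, which joins IgA units into dimers, the V signal was 1.36 to 2.10 in KO, 1.15 to 1.93 in transferred and 0.953 to 1.43 in control libraries, so that the KO over control difference was 0.63 on the log2 scale against 2.39 for the V signal itself, and the groups overlapped. Igha, the constant region of IgA, made up 89.0% to 97.6% of heavy constant counts in KO, 90.9% to 98.0% in transferred and 96.1% to 97.3% in control libraries.

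The tests were run gene by gene on log2(normalized count + 1), in limma, once genes that averaged under 10 normalized counts had been left out. Of the members, 155 passed that filter (77 Ighv, 75 Igkv and 3 Iglv). A segment that is near 0 in control colon could pass only through the groups where it is high, so counts over the 155 are given as a description, with the counts over all 195 from a fit without the filter.

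In KO against control colon, 101 of 155 segments rose (65.2%), where 22.7% of all genes rose. These were 48 Ighv, 51 Igkv and 2 Iglv segments, and the called differences ran from 1.65 to 6.29 on the log2 scale. None of the 155 fell, by limma, edgeR or DESeq2, also at an unadjusted p under 0.05, where 22.9% of all genes fell. The median difference was 2.80 on the log2 scale against 0.02 over all genes tested, and 154 of 155 were positive. The exception was Igkv4-79, at 11.7, 12.6 and 3.29 normalized counts in KO and 28.3, 3.98 and 16.5 in control libraries, which overlap (adjusted p = 0.728). Without the filter, 110 of 195 rose, where 17.6% of all genes did. KO libraries were all above the control libraries in 122 of 195 segments, where 24.2% of all genes had such a pattern. Leaving out 1 library gave 69 to 107 segments that rose.

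**Figure D2:**
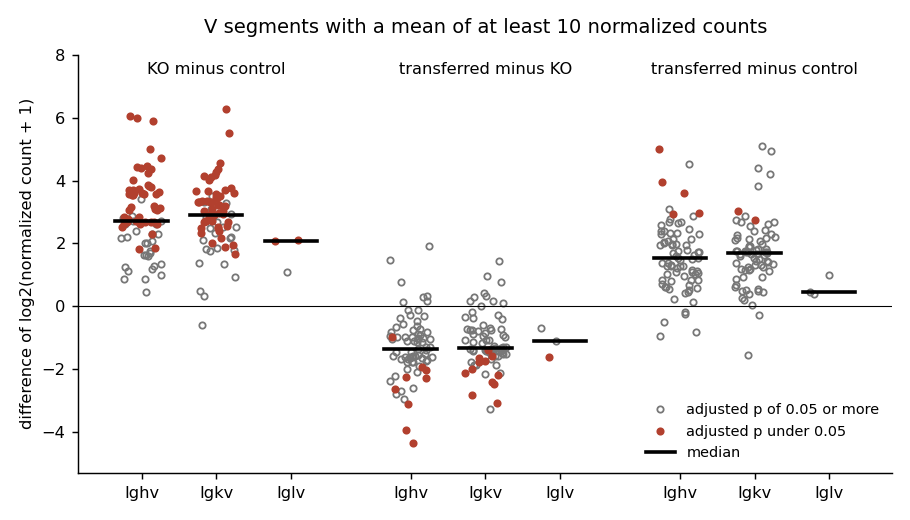
Difference of log2(normalized count + 1) (y axis) for each V segment that averaged 10 normalized counts or more, by chain and comparison (x axis), with segments of adjusted p under 0.05 filled and the median as a line. KO minus control lies above 0 for 154 of 155 segments, transferred minus KO below 0 for 138, and transferred minus control above 0 for 148.

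The most abundant heavy chain segments were all higher in KO. Ighv1-53 had 369, 418 and 426 normalized counts in KO and 78.2, 35.8 and 98.1 in control libraries, with no overlap and a log2 difference of 2.61 ± 0.63 (SE, adjusted p = 0.00587). Ighv1-26 had 616, 738 and 517 in KO against 83.8, 32.8 and 116 in control libraries (3.15 ± 0.69, adjusted p = 0.00327). Ighv3-6 had 266, 658 and 624 in KO against 76.3, 48.7 and 110.3 in control libraries (2.67 ± 0.67, adjusted p = 0.00718). Ighv9-3 and Ighv1-64, the other 2 of the 5 heavy segments with the highest mean, differed by 2.67 and 2.82 with adjusted p of 0.0192 and 0.00156. Ighv9-3 had 235 in control 3, within the range of the transferred libraries, and its call was lost without KO 4 or control 2.

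Of the 5 leading kappa segments, 3 rose. Igkv10-96 had 1224, 755 and 961 normalized counts in KO against 162, 22.9 and 111 in control libraries (3.66 ± 0.69, adjusted p = 0.00129). Igkv6-15 had 819, 917 and 759 in KO against 84.8, 122 and 295 in control libraries (2.50 ± 0.55, adjusted p = 0.00325). Igkv9-124 had 372, 181 and 763 in KO against 11.3, 3.98 and 152 in control libraries (4.14 ± 1.30, adjusted p = 0.0219). The KO and control libraries of these 3 segments did not overlap, and the call of Igkv9-124 was lost with edgeR and without KO 4, control 1 or control 2.
Igkv1-110, the segment with the highest mean of the series, had 2296, 882 and 735 in KO against 149, 156 and 789 in control libraries, where control 3 lay above KO 4, and it did not pass the test (2.11 ± 0.84, adjusted p = 0.058). Igkv1-117, with 1239, 1221 and 369 in KO against 249.6, 108 and 209 in control libraries, missed the threshold too (2.20 ± 0.84, adjusted p = 0.0512) although its libraries did not overlap. These 2 segments share 16.2% and 16.1% of their 100-base exonic stretches with another V gene, so their reads may be split. The same limit holds for called segments. The share was 29.4% in Ighv1-52, 15.7% in Ighv1-75, 9.27% in Ighv8-5, 7.94% in Ighv1-26 and 4.44% in Ighv4-1. It was 0% in Ighv3-6, Ighv9-3 and Ighv1-64.

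Lambda segments were led by Iglv1. It had 1784, 1425 and 1915 normalized counts in KO against 859, 469 and 163 in control libraries (2.07 ± 0.58, adjusted p = 0.0126). Iglv3 was a minor segment, with 72.4, 41.7 and 44.9 in KO against 20.7, 5.96 and 11 in control libraries (2.10 ± 0.71, adjusted p = 0.0298), and its call was lost without any of the KO libraries, control 2 or control 3. Iglv2 had 455, 102 and 111 in KO against 72.5, 101 and 71.7 in control libraries and did not pass (1.09 ± 1.24, adjusted p = 0.504).

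The largest called differences belonged to segments that were almost unseen in control colon. Igkv1-88 had 253, 83.3 and 269 normalized counts in KO against 0, 0 and 11 in control libraries (6.29 ± 1.35, adjusted p = 0.00299). Ighv5-12 had 278, 69.8 and 232 in KO against 2.83, 0.994 and 1.10 in control libraries (6.04 ± 0.95, adjusted p = 0.000445). Ighv1-52 (5.98 ± 1.18, adjusted p = 0.00184) and Ighv2-3 (5.89 ± 1.20, adjusted p = 0.00223) followed. Near 0 such a difference depends on the pseudocount: that of Ighv5-12 lay between 3.93 and 6.85 over the alternatives, all of them called. In Ighv2-3 the KO libraries were themselves uneven, at 307, 52.3 and 592, against 22.6, 0.994 and 0 in control libraries.

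In transferred against KO colon, 22 of 155 segments fell (14.2%), the same share as the 14.2% of all genes that fell, so the number of calls does not set V segments apart. The median difference was -1.32 on the log2 scale against -0.02 over all genes tested, and 138 of 155 were negative. No segment rose by limma, also at an unadjusted p under 0.05, where 17.0% of all genes rose. By edgeR none rose and 1 did at an unadjusted p under 0.05, and by DESeq2 1 rose, Ighv7-4. Without the filter 20 of 195 fell, where 10.2% of all genes did, and 23 of 195 had all transferred libraries below all KO libraries, where 13.3% of all genes did. The count of 22 fell to 13 without KO 1, 8 without KO 3, 10 without KO 4, 11 without transferred 2 and 14 without transferred 5.

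Ighv5-12 fell the most, to 11, 17.1, 12.8, 11.4 and 0 normalized counts in transferred libraries, against 278, 69.8 and 232 in KO libraries (-4.34 ± 0.85, adjusted p = 0.00331). All transferred libraries were below all KO libraries and, except transferred 5, above the control libraries. Igkv8-27 had 77.6, 33.2, 89.4, 239 and 38.3 in transferred libraries against 545, 337 and 379 in KO libraries (-2.47 ± 0.58, adjusted p = 0.00834). Igkv19-93 had 161, 37.2, 68.8, 172 and 36.1 in transferred libraries against 387, 194 and 899 in KO libraries (-2.40 ± 0.65, adjusted p = 0.0159).
Ighv8-5 had 11, 2.01, 0, 4.76 and 1.09 in transferred libraries against 13.7, 20.3 and 440.2 in KO libraries (-3.94 ± 1.06, adjusted p = 0.0159). KO 4 alone set the size of the Ighv8-5 difference, and without it the calls of Ighv8-5 and Igkv19-93 were lost. Iglv1 had 944, 301, 636, 957 and 311 in transferred libraries against 1784, 1425 and 1915 in KO libraries (-1.60 ± 0.52, adjusted p = 0.0354), with no overlap, and its call was lost without any single KO library or without transferred 2, 3 or 5.

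In transferred against control colon, 7 of 155 segments rose (4.52%), where 1.14% of all genes rose. The median difference was 1.64 on the log2 scale against -0.01 over all genes tested, 148 of 155 were positive, and 68 had an unadjusted p under 0.05 in limma, all of them higher. None fell by limma, edgeR or DESeq2, also at an unadjusted p under 0.05, where 0.453% of all genes fell. Without the filter 8 of 195 rose, where 0.709% of all genes did, and 25 of 195 had all transferred libraries above all control libraries, where 4.99% of all genes did. The count of calls was unstable: it was 44 with DESeq2, 3 with edgeR and 0 in a fit of only these 2 groups. It was 1 without transferred 1, 22 without transferred 2, 3 without transferred 3, 4 without transferred 4, 23 without transferred 5, 1 without control 1 and 0 without control 2.

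The 7 segments were Igkv8-24, Ighv5-16, Ighv4-1, Igkv17-121, Ighv1-53, Ighv1-75 and Ighv1-52. Igkv8-24 had 667, 454, 149, 343 and 424 normalized counts in transferred libraries against 98.9, 28.8 and 54.0 in control libraries (2.75 ± 0.47, adjusted p = 0.0269). Ighv5-16 had 80.3, 35.2, 182, 80 and 66.8 in transferred libraries against 0.942, 11.9 and 9.92 in control libraries (3.59 ± 0.61, adjusted p = 0.0269). Ighv1-52 had 457, 37.2, 50.1, 90.5 and 137 in transferred libraries against 0.942, 0 and 15.4 in control libraries (5.01 ± 1.06, adjusted p = 0.0443). In all 7 the transferred libraries lay above the control libraries. The adjusted p of the other 4 lay between 0.0295 (Ighv4-1) and 0.033 (Ighv1-75), and each of the 7 calls was lost in the fit of 2 groups and without control 2.

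The V signal of KO colon was spread over more segments. At least 1 read was found for 187, 189 and 174 of the 195 members in KO, 182, 173, 181, 186 and 168 in transferred, and 162, 145 and 169 in control libraries. At an equal depth of 3828 V reads, that of the shallowest library, the expected number was 163, 165 and 156 in KO, 158, 159, 159, 163 and 151 in transferred, and 150, 145 and 160 in control libraries. The gap in detection between KO and control libraries was smaller at equal depth, and the ranges overlapped.
In KO colon 1 member and in transferred colon 0 members were at 0 in every library, against 19 in control colon. The effective number of segments, the exponential of the Shannon entropy, says how many equally abundant segments would give the same spread. It was 87.9, 101 and 85.1 in KO, 74.3, 70.9, 70.7, 74.8 and 45.2 in transferred, and 59.8, 48.7 and 74.6 in control libraries. Every KO library was above every transferred and every control library, and the transferred and control libraries overlapped. Means ± SD were 91.4 ± 8.64 in KO, 67.2 ± 12.4 in transferred and 61.1 ± 13.0 in control colon, and at equal depth 89.5, 66.0 and 60.6.

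The 10 leading segments of a library took 32.6%, 26.5% and 31.0% of its V counts in KO, 38.6%, 42.0%, 41.0%, 38.0% and 55.4% in transferred, and 43.7%, 52.4% and 36.7% in control libraries. The highest KO share was below the lowest share of the other groups. Leading segments were compared without dividing by length, since the exonic lengths of the members lay between 338 and 501 bases (median 359), and per length the leading segment was the same in 11 of 11 libraries. These measures describe the libraries and were given no test, and the makeup of the tissue moved with them as above.

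**Figure D3:**
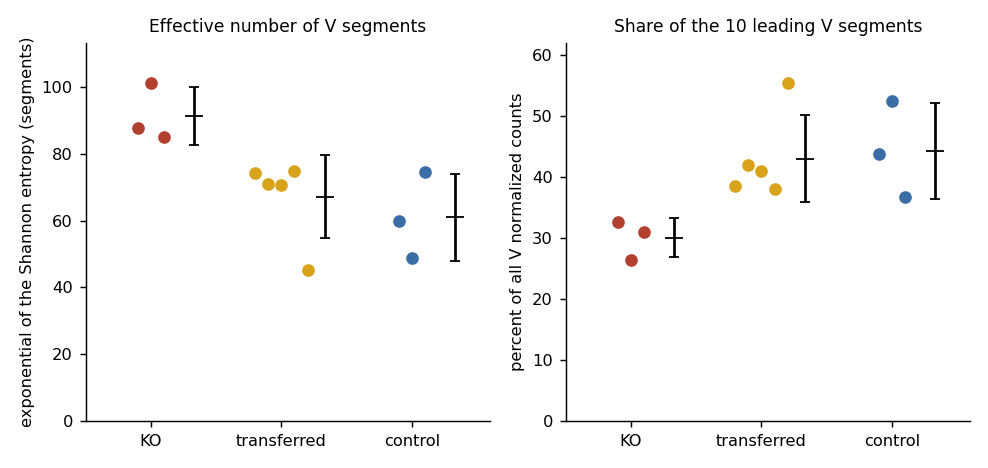
Effective number of V segments (left) and share of the 10 leading segments in percent of V counts (right) per library, by group (x axis), with the mean and SD beside the points. KO libraries lie at 85.1 to 101 segments and 26.5% to 32.6%, apart from the transferred and control libraries, and transferred 5 lies at 45.2 segments and 55.4%.

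Which segment led differed from library to library. Igkv1-110 led in KO 1 (6.43% of V counts), transferred 4 (12.8%) and control 3 (9.73%), and Iglv1 in KO 3 (4.39%), KO 4 (6.88%), control 1 (13.3%) and control 2 (12.3%). Igkv9-124 led in transferred 3 (9.79%) and transferred 5 (16.1%), Igkv6-15 in transferred 2 (6.22%) and Iglv2 in transferred 1 (7.05%). The leading segment took at most 6.88% in KO, 6.22% or more in each transferred and 9.73% or more in each control library. KO and transferred libraries overlapped in this share, since transferred 2 was below KO 1 and KO 4.

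Among heavy chains the leading segment was a different one in each KO library, with Ighv1-22 in KO 1 (971 normalized counts), Ighv1-26 in KO 3 (738) and Ighv3-6 in KO 4 (624). In control libraries it was Ighv1-77, Ighv10-1 and Ighv1-69, of which Ighv10-1 took 20.5% of the Ighv counts of control 2. In transferred libraries Ighv1-53 led in transferred 3 and 5, Ighv7-4 in transferred 2 and 4, and Ighv1-77 in transferred 1. The leading Ighv segment took 5.59% to 7.33% of Ighv counts in KO, 7.91% to 35.5% in transferred and 10.1% to 20.5% in control libraries. The leading Igkv segment took 6.57% to 11.4% of Igkv counts in KO, 9.86% to 28% in transferred and 12% to 16.8% in control libraries.

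Transferred 5 was the least diverse library. Ighv1-53 made up 35.5% of its Ighv counts and Igkv9-124 made up 28% of its Igkv counts. Ighv1-53 had 197, 289, 963, 429 and 1441 normalized counts in the transferred libraries, and Igkv9-124 had 1339, 505, 2061, 87.7 and 1665. Both were thus high in transferred 3 and transferred 5, while in transferred 4 Igkv9-124 was below every KO library. Reads of short fragments do not show whether a heavy and a light segment came from the same cell.

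Ighv7-4 was nearly private to some transferred libraries. It had 0, 368, 393, 872 and 4.38 normalized counts in transferred libraries, against 8.81, 14.5 and 24.1 in KO libraries and 2.83, 0 and 3.31 in control libraries. With 3 transferred libraries high and 2 at or near 0, it did not pass the limma test against KO (1.90 ± 1.93, adjusted p = 0.481) or control colon (4.52 ± 1.93, adjusted p = 0.234). Iglv2 had 1710.4 in transferred 1 and 19.1 to 116 in the other transferred libraries, and Igkv1-88 had 622 in transferred 3 and 8.57 to 49.3 in the others.

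**Figure D4:**
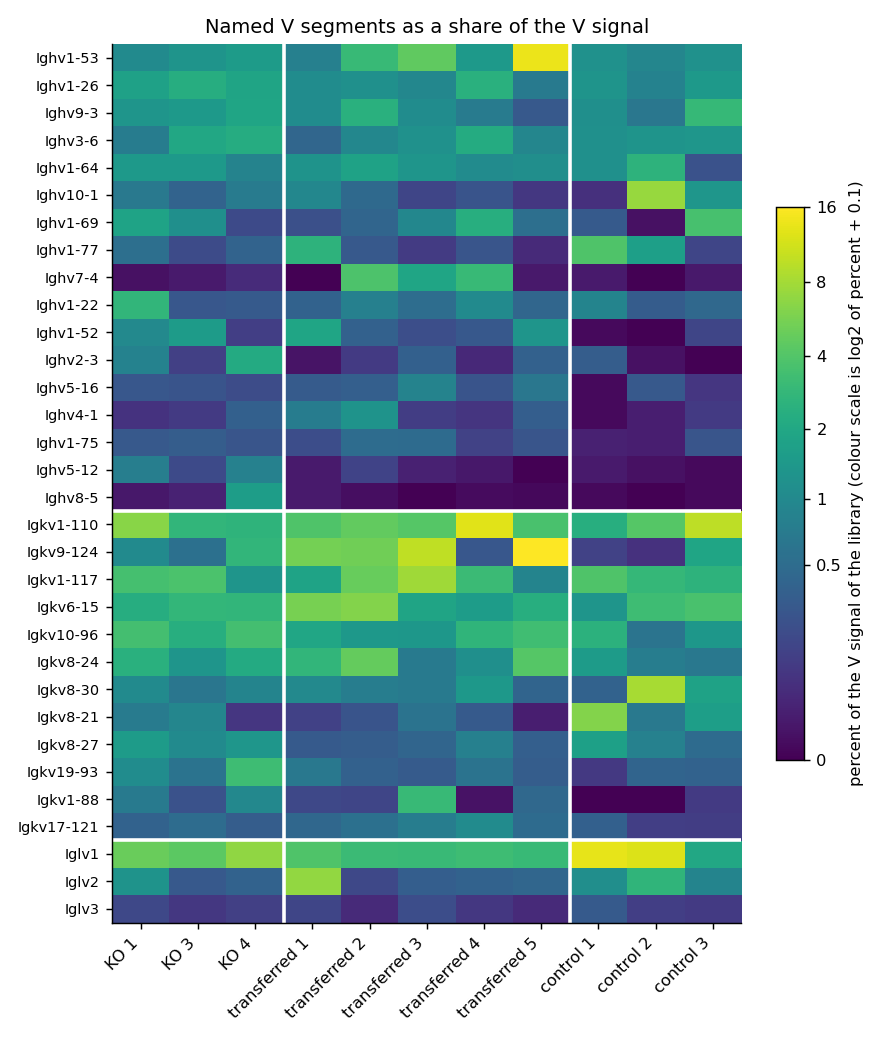
Share of the V counts of each library (colour, percent, on a log2 scale of percent + 0.1) for the 32 named V segments (rows, by chain) in KO, transferred and control libraries (columns). The highest share is that of Igkv9-124 in transferred 5, 16.1%, and Ighv7-4 is bright only in transferred 2, 3 and 4.

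Across the series 48 segments reached 2% of the V counts of at least 1 library, and 14 of them were there at 10 or more times their median share in the other libraries. Of these 14, 1 was highest in a KO library, 7 in a transferred library and 6 in a control library. The groups held 3, 5 and 3 libraries and V reads were fewest in control colon. The part of both in these counts was not tested. For example, Ighv5-9-1 took 3.31% in control 1 against a median of 0.126% elsewhere, Ighv2-3 2.13% in KO 4 against 0.149%, and Igkv4-90 5.54% in control 3 against 0.165%. These segments were picked for their spread and carry no test.

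The composition shared by any 2 libraries, the sum over segments of the smaller of both shares, was 63.8% to 70.7% between KO libraries (3 pairs), 48.9% to 64.7% between transferred libraries (10 pairs) and 47.1% to 53.9% between control libraries (3 pairs). Between transferred and KO libraries it was 51.6% to 67.1%, between KO and control libraries 51.1% to 65.8%, and between transferred and control libraries 43.1% to 62.4%. V reads numbered 25436 to 36452 in KO, 9465 to 30793 in transferred and 3828 to 7360 in control libraries, so that depth differed too, and its part in these values was not tested.

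Shares of families of related segments overlapped between KO and control libraries in all but 4 of 38 families. They overlapped between transferred and KO libraries in all but 1, and between transferred and control libraries in all 38. They were given no test. In normalized counts, 24.2% of all genes had every KO library above and 25.2% every KO library below the control libraries. For transferred against KO libraries these shares were 14.7% and 13.3%. The counts of 4 and 1 therefore do not set these families apart. Ighv1, the largest heavy family with 48 members, made up 53.7% ± 7.85 of Ighv counts in KO, 58.1% ± 11.5 in transferred and 53.3% ± 4.85 in control colon. Igkv4, the largest kappa family with 26 members, made up 16.8% ± 4.52 of Igkv counts in KO, 15.5% ± 4.99 in transferred and 19.6% ± 8.29 in control colon. Igkv1 made up 16.5% ± 5.61 in KO, 19.5% ± 7.24 in transferred and 17.2% ± 5.01 in control colon. Igkv9 stood at 3.91% ± 2.27 in KO, 14.9% ± 9.89 in transferred and 2.63% ± 2.63 in control colon, with transferred 4 at 2.00% within the range of the KO libraries. Ighv2 was the family in which KO and transferred libraries did not overlap, at 4.96% to 6.92% in KO, 1.87% to 4.68% in transferred and 2.12% to 6.10% in control colon. The 4 families in which KO libraries lay above control libraries were Ighv8, Igkv19, Ighv15 and Igkv11. Ighv8 was at 3.03% to 5.92% in KO, 1.09% to 3.08% in transferred and 1.02% to 2.31% in control colon. Igkv19, with Igkv19-93 as its 1 member, was at 1.05% to 6.15% in KO, 0.516% to 1.17% in transferred and 0.254% to 0.851% in control colon. Ighv15 and Igkv11 were listed at 0 in all control libraries and stayed at or under 0.162% in the others. Their members, Ighv15-2 and Igkv11-125, averaged 8.51 and 2.03 normalized counts in KO colon, so these shares rest on few reads.

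Segments from the whole length of both large loci were in use. With the members of each locus cut into 3 bins of 32 by their distance from the J segments, to which V segments are joined, the nearest bin of the heavy locus (0.15 to 0.794 Mb) took 28.4% ± 4.82 of Ighv counts in KO, 25.6% ± 8.69 in transferred and 22.8% ± 9.75 in control colon. The farthest bin (1.56 to 2.57 Mb) took 37.6% ± 3.16 in KO, 43.6% ± 7.96 in transferred and 34.5% ± 6.34 in control colon (SD throughout, n = 3, 5 and 3 libraries). Of the segments that passed the filter, 18 of 26 rose in KO against control in the nearest heavy bin, 12 of 24 in the middle and 18 of 27 in the farthest, where 22.7% of all genes rose. In the kappa locus 17 segments rose in each bin, of 24, 25 and 26 that passed. Segments that rose were thus found in all bins of both loci.

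**Figure D5:**
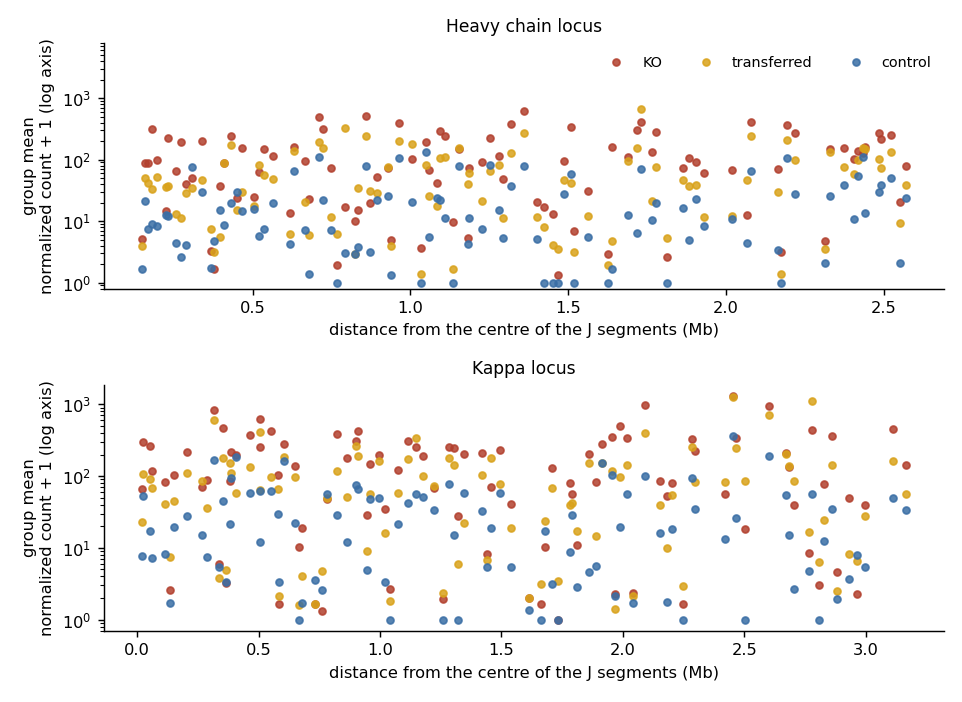
Group mean normalized count + 1 of each segment (y axis, log scale) against the distance from the centre of the J segments in Mb (x axis) in the heavy (top) and kappa (bottom) locus, for KO, transferred and control colon. KO means lie above control means for 93 of 96 heavy and 88 of 96 kappa segments, out to 2.57 Mb in the heavy and 3.17 Mb in the kappa locus.

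Other genes of antibody production were read from lists. Of all genes, 22.7% rose in KO against control, 14.2% fell in transferred against KO and 1.14% rose in transferred against control. Of 17 genes of antibody-secreting cells, 15 rose in KO against control (median log2 difference 1.57) and 7 fell in transferred against KO. Prdm1 (0.12 ± 0.46, adjusted p = 0.853) and Eaf2 (0.59 ± 0.29, adjusted p = 0.110) did not pass in KO against control. In transferred against control 2 rose, Jchain and Slamf7 (adjusted p = 0.0469 and 0.0488). The part of other cell types in this list was not tested. Sdc1 and Sec11c averaged 3830 and 1918 normalized counts in control colon, against 31.1 for Mzb1. Mzb1, Irf4, Derl3 and Tnfrsf17 did not pass in transferred against KO (adjusted p = 0.0779, 0.0911, 0.363 and 0.558). Creld2, a protein folding factor of the endoplasmic reticulum, averaged 2426 ± 535 normalized counts in KO, 1377 ± 241 in transferred and 828 ± 154 in control colon (KO against control 1.54 ± 0.20, adjusted p = 0.000139). Sec11c, a signal peptidase subunit, differed by 0.86 ± 0.12 between KO and control colon (adjusted p = 0.000216). Of 12 constant region genes 10 rose in KO against control, with Igha higher by 2.05 ± 0.37 (adjusted p = 0.000946) and Igkc by 2.21 ± 0.37 (adjusted p = 0.000644), none passed in transferred against KO, and Igkc alone passed in transferred against control (1.52 ± 0.33, adjusted p = 0.0469).

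Of 16 genes of mature B cells 13 rose in KO, among them Blk, a B cell kinase (3.21 ± 0.59, adjusted p = 0.00112), and Cd79b, a part of the B cell receptor (2.23 ± 0.47, adjusted p = 0.00264), and Ebf1 fell. Their summed level was 1942 to 2309 in KO, 481 to 1904 in transferred and 439 to 949 in control libraries. Of 14 germinal centre genes that passed the filter 5 rose in KO, namely Bcl6, Fas, Msh6, Exo1 and Cxcr5, where 22.7% of all genes rose. Fas, a death receptor that is also expressed outside B cells, differed by 0.96 ± 0.18 (adjusted p = 0.00139) and Exo1, an exonuclease of mismatch repair, by 1.29 ± 0.34 (adjusted p = 0.00866). Of 8 genes of V(D)J recombination and B cell receptor assembly that passed the filter, Vpreb3 alone rose in KO (1.99 ± 0.43, adjusted p = 0.0032) and alone fell in transferred against KO (-1.16 ± 0.39, adjusted p = 0.04). Vpreb3 takes part in the assembly of the immature receptor and not in the cutting of DNA. Joining segments were thinly covered, with a sum over 10 of them of 104 to 148 in KO, 29.2 to 95.3 in transferred and 11.9 to 25.4 in control libraries, and the 2 that passed the filter, Ighj4 and Igkj5, both rose in KO (2.16 ± 0.52 and 2.80 ± 0.51, adjusted p = 0.00593 and 0.00112).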

How the data were processed

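RNA of whole colon was sequenced in 3 KO, 5 transferred and 3 control libraries, grouped by the submitters' labels. The deposited signal values are gene counts that the authors had divided by 1 factor per library. The submitters' processing notes name HISAT2 (2.2.1), SAMtools (1.13), HTSeq (1.99.2), DESeq2 (1.40.2) and GRCm39. The sources used here give no annotation release, strand setting or rule for reads that fit several genes. Reads of mutated or near-identical V exons may therefore be lost or split, and 73 of 195 members share a 100-base exonic stretch with another V gene.

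Each value was a whole multiple of the value of 1 read within 0.05 (100% of values), which gave back reads for edgeR (4.0.16) and DESeq2 (1.42.0). Symbols, coordinates and sequences came from GENCODE vM39 and the GRCm39 genome, with 99.2% of identifiers matched. Groups were compared in limma (3.58.1, R 4.3.3) with a variance trend on log2(normalized count + 1), for the 16781 genes that averaged 10 or more, all 11 libraries in 1 fit, Benjamini-Hochberg adjusted p under 0.05 over all genes. It was tested on simulated data. Totals, shares and diversity (Python 3.11, pandas) are descriptions without a test. At 10 normalized counts a value rests on about 10 reads, so low segments carry a large counting error.

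The study's own analysis used DESeq2 on counts, and limma was used here since the deposited unit is a normalized count. Alternatives were other pseudocounts (0.5 and 10), no filter, a mean of at least 50, TMM and quantile scaling, edgeR, DESeq2, fits of 2 groups, no variance trend, a replicate block, an unadjusted p under 0.05 with a log2 difference over 0.6, functional segments, and leaving out each library. DESeq2 with that unadjusted threshold and levels per exonic length were added after the data were seen. Named segments were the 5 Ighv, 5 Igkv and 3 Iglv of highest mean, the leading Ighv and Igkv segment of each library, up to 4 called segments per comparison and direction with the largest difference (group mean of at least 50, no overlap), called segments against the main direction, and all called between transferred and control. Of 4 lists, up to 2 genes with the smallest adjusted p in KO against control were named. Igkv4-79, Ighv5-9-1, Igkv4-90, Igkv2-109, Mzb1, Sdc1, Irf4, Derl3, Tnfrsf17 and genes that make up a count of 5 or fewer were named after their values were seen. Members and lists were chosen with earlier results of these data known.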

Additional observations from a re-analysis of the deposited data

Results flagged for a closer look

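Dixon's test was applied to 42 measures of the 5 transferred libraries (critical value 0.710), and 13 were marked. Chance marks about 1 in 20 groups of normally distributed values. This rate does not apply to segments that were named because they led 1 of these libraries or had a large difference. Segments were tested as normalized counts without a log scale, so the rate may not hold for the others either. The groups of 3 libraries were not tested, so the marks concern the transferred libraries alone. Transferred 5 stood apart in its effective number of segments (45.2, against 70.7 to 74.8 in the other transferred libraries), in the share of its 10 leading segments (55.4%, against 38.0% to 42.0%) and in a low Ighv9-3 (32.9 normalized counts, against 214 to 264). Transferred 1 stood apart in lambda, with Iglv at 11.1% of V counts (against 3.41% to 3.79%), lambda at 16.5% of light chain V counts (against 5.39% to 5.94%) and Iglv2 at 1710.4 normalized counts (against 19.1 to 116). In the same library Ighv1-77 had 623 (against 8.76 to 82.9) and Ighv1-52 457 (against 37.2 to 137). Transferred 4 was high for Igkv1-110 at 3748 (against 382 to 949), Ighv1-22 at 303 (against 44.9 to 109), Ighv1-69 at 682 (against 41.2 to 200.5) and Igkv8-27 at 239 (against 33.2 to 89.4). Transferred 3 was high for Igkv1-88 at 622 (against 8.57 to 49.3).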

How the results depend on the processing

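The 101 segments higher in KO than control were 69 to 107 when 1 library was left out, and within 1.5 times under all other alternatives, and none was lower in any fit. The 22 segments lower in transferred than KO were 8 to 32 when 1 library was left out, 13 with a mean of at least 50, 38 at an unadjusted p under 0.05 with a log2 difference over 0.6, and 39 with DESeq2 at that threshold. The 0 higher became 1 with DESeq2 at either threshold (Ighv7-4). The 7 higher in transferred than control were 0 to 23 when 1 library was left out, 3 with edgeR and without the variance trend, 0 with 2 groups, 44 with DESeq2, 68 at the unadjusted threshold and 78 with DESeq2 at it. The cause was not tested. The replicate numbers are only numbers: same-numbered libraries correlated at -0.102 to 0.386. With a replicate block the counts were 95 higher in KO than control, 13 lower in transferred than KO, 34 higher in transferred than control, and 1 higher in transferred than KO (Igkv2-109).

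The log2 ratio of total V signal was 2.14 to 2.64 for KO against control, -0.97 to -0.59 for transferred against KO and 1.38 to 1.88 for transferred against control when 1 library was left out. Relative to Jchain it was 0.63 for KO and 0.43 for transferred, each against control. The effective number was 86.5 to 94.6 in KO, 65.3 to 72.7 in transferred and 54.3 to 67.2 in control colon with 1 library left out. It was 49.4, 37.7 and 33.7 for heavy chains alone in KO, transferred and control colon, 46.3, 33.1 and 33.4 for kappa alone, and 61.0, 34.9 and 31.6 as inverse Simpson index. The share of the 10 leading segments was 28.7% to 31.8% in KO, 39.9% to 44.3% in transferred and 40.2% to 48.1% in control colon with 1 library left out. It was 42.5%, 53.7% and 57.0% for heavy chains in KO, transferred and control colon, and 45.3%, 58.7% and 57.3% for kappa, since fewer segments share the total. Named segments gave 36 called differences, which kept their call in 698 of 785 alternatives, and none reversed. V reads were 3828 to 36452 per library and fewest in control colon. The part of depth in the segments at 0 in control colon was not tested.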
